A study of Solanum lycopersicum with 12 samples.

Results

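The tomato hybrid GxQ was compared with one of its parents, the line Q, across all 17887 genes measured in the flesh of red ripe fruits. The comparison used 6 of the 12 RNA sequencing libraries of the study, 3 from GxQ and 3 from Q, chosen by the genotype in the labels. Q (Querubín FCA) and G (Gema FCA) are recombinant inbred lines, that is, fixed lines, bred from a cross of Solanum lycopersicum with the wild Solanum pimpinellifolium. GxQ and QxG are the hybrids made from both lines with the direction of the cross exchanged. All 4 genotypes were grown in 1 greenhouse, each library came from the mesocarp (the fleshy fruit wall) of a separate fruit, and the labels give neither an age in days nor an hour of harvest. Differences between genotypes and differences in harvest or handling can therefore not be told apart. Libraries are called here by genotype and replicate number, so that Q 3 is the third Q library.

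A tomato fruit that ripens makes a burst of ethylene, and a set of transcription factors and that hormone together raise the genes for pigment, softening and aroma. Red colour comes from lycopene made by plastid enzymes, softening from enzymes that cut pectin and other wall polymers, sweetness from hexoses released by invertases, and much of the aroma from cleaved fatty acids and carotenoids. Lines that carry different wild and cultivated alleles can differ in any of these genes, and a hybrid holds both alleles.

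Total counts were 19026890 to 20471869 in Q and 18234869 to 19956457 in GxQ, and levels are given as CPM, counts scaled to the library total after adjustment by the trimmed mean of M-values. All 8 listed markers of red ripe flesh were above 0 in all 6 libraries, with a summed level of 17469, 18733 and 43759 CPM in Q and 13264, 16837 and 21048 CPM in GxQ. Among the Q libraries the third stood apart, with r = 0.953 and 0.957 on the log2 scale across genes with the first and second, against 0.987 between those. By the scaling factor of the adjustment, however, Q 1 and Q 2 were the highest of the study, at 1.24 and 1.20. Q 3, at 0.956, lay within the 0.884 to 1.07 of the other genotypes. Which of the Q libraries is the unusual one was not tested. GxQ libraries correlated with each other at 0.962 to 0.974. QxG 1, whose spread also enters the fit, had no count for 1436 genes, while the other 11 libraries had none for 31 to 338 genes. Of 4 epidermis markers 2 were in the table, with a summed level of 13.4 to 22.1 CPM in Q and 4.38 to 16.02 CPM in GxQ, and of 3 seed markers none was. Of 4 markers of green tissue 1 was in the table, at 114 to 142 CPM in Q and 125 to 215 CPM in GxQ.

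Between GxQ and Q, 2780 genes (15.5% of those tested) were called at an adjusted p under 0.05, 1455 higher (8.13%) and 1325 lower (7.41%) in the hybrid. Every adjusted p given here is from edgeR's quasi-likelihood F test with Benjamini-Hochberg adjustment over the genes tested. Unless a library is said to be left out, the fit held all 12 libraries and 17887 genes. The test sets a difference against a spread between fruits that is estimated over all genotypes. The median log2 fold change was 0.99 among genes called higher and -1.41 among those called lower, against -0.02 over all genes. At least 2-fold changes were called for 1631 genes (9.12%), 718 higher and 913 lower (4.01% and 5.1%), and at least 4-fold ones for 262 higher and 389 lower. The 3 GxQ libraries did not overlap the 3 Q libraries for 38.9% of all genes, 19% higher and 19.9% lower. Among the 2780 called genes 2727 did not overlap.

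The number of calls depended on which libraries were in the fit. A fit without 1 library also has less replication, and its effect was not separated from that of the library itself. Leaving out GxQ 2, GxQ 3, Q 1 or Q 2 left 1555, 1444, 1696 and 1258 calls, and leaving out Q 3 left 2085. There were 2411 calls without GxQ 1, and 2602 and 2623 without QxG 2 and QxG 3. Leaving out G 1, G 2 or G 3 left 2179, 2353 and 2121. The calls over all genes in a fit are the background for the list genes called in it below. Without QxG 1 there were 3828 calls, and without both Q 3 and QxG 1 there were 3660. DESeq2 called 4003 genes, 2026 higher and 1977 lower. No gene called with all 12 libraries had the opposite sign in any of the 20 alternative fits that could be compared. For 1 of these, the fit without a filter, this was fixed in advance, since the filter had removed 0 genes.

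**Figure D1:**
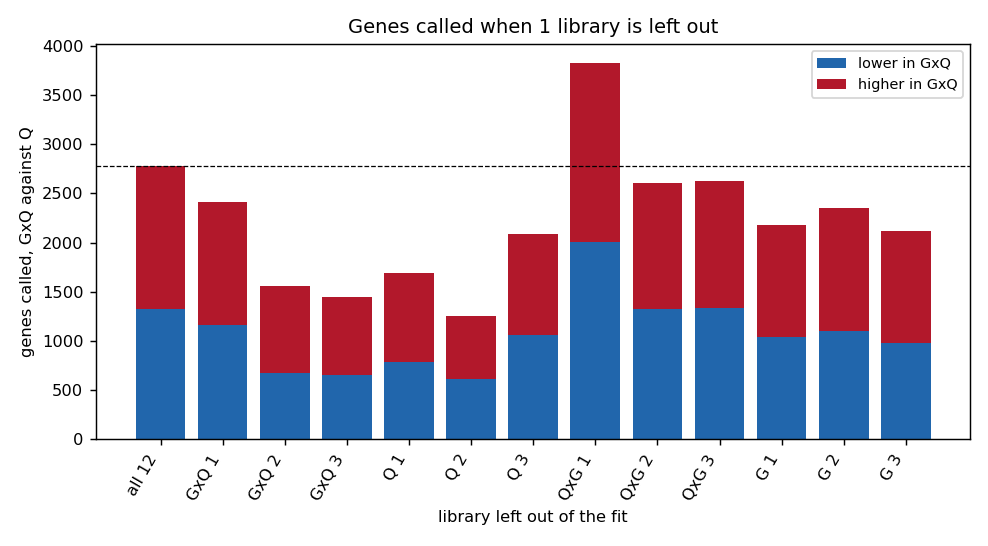
Genes called between GxQ and Q (bar height) in the fit with all 12 libraries and with each library left out in turn, split into genes lower and higher in GxQ. The dashed line marks the 2780 calls of the full fit. The count is lowest without Q 2, at 1258, and highest without QxG 1, at 3828.

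The 231 genes of 21 lists that were in the table held 62 called genes (26.8%, against 15.5% of all genes), 20 higher and 42 lower in GxQ. As the lists were chosen with earlier results of these data known, the larger share cannot be read as an enrichment. The median log2 fold change of the list genes was -0.10. In 29 of the 62 the call was kept without each of the 12 libraries in turn, and in 33 it ended without at least 1 of them. Where that is so, the libraries are named beside the gene. In bulk tissue fewer cells of a type and less RNA per cell cannot be told apart. Genes written by identifier have no symbol in the RefSeq table that passed the check of names, and their description is the one under which they were entered in the lists.

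**Figure D2:**
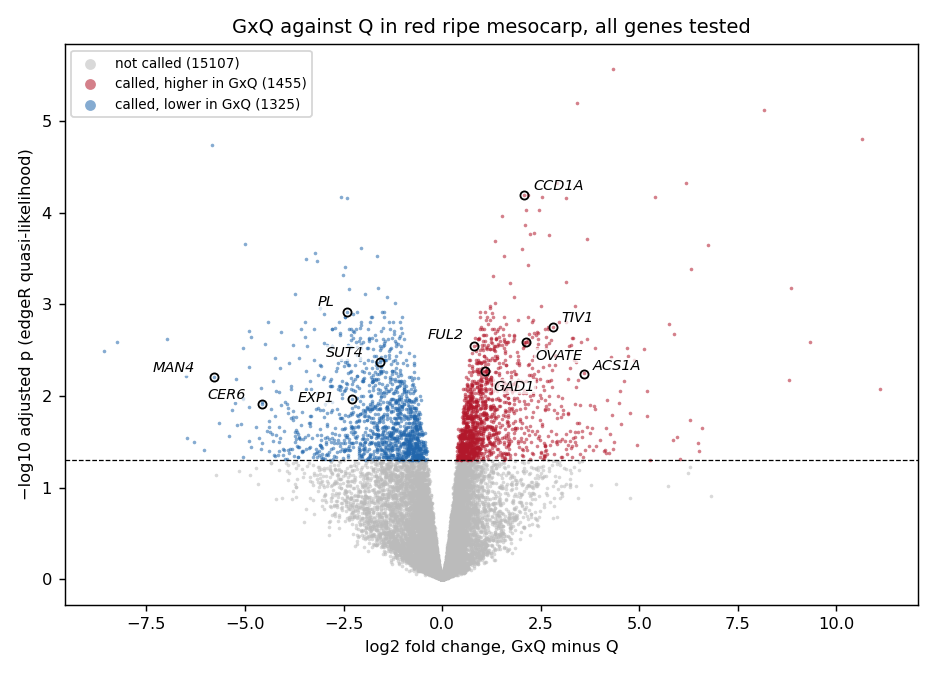
Each point is 1 of 17887 genes, placed by its log2 fold change between GxQ and Q and by -log10 of its adjusted p, with 11 list genes circled and named. The dashed line is the threshold of 0.05, above which lie 1455 genes higher and 1325 genes lower in GxQ.

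Genes that loosen and cut the cell wall were the list with the highest share of calls among lists with at least 10 members in the table. Of 12 genes 7 fell in GxQ and none rose, with a median log2 fold change of -1.97. This is a share of 58.3%, against 15.5% of all genes called in either direction and 7.41% called lower. The lists were chosen with earlier results of these data known. The pectate lyase PL (Solyc03g111690), which cuts pectin during softening, stood at 2567, 2648 and 5212 CPM in Q and at 696, 576 and 686 CPM in GxQ. All GxQ libraries were below all Q libraries, and also below the lowest library of G and of QxG. PL averaged 3476 ± 1504 CPM in Q and 653 ± 66.9 CPM in GxQ (SD, n = 3 each), a 5.33-fold lower level (log2 fold change -2.41, SE 0.30, adjusted p = 0.001204). This call held without each library in turn.

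The mannanase MAN4 (Solyc01g008710), which cuts mannans, had 17.9, 19.3 and 155 CPM in Q and 0.767, 2.24 and 0.453 CPM in GxQ. The third Q library was the highest by far and the groups did not overlap. The level was 55.02-fold lower in GxQ (log2 fold change -5.78, SE 1.08, adjusted p = 0.00627), with a log2 fold change of -4.02 without Q 3 and -6.68 without GxQ 2. The expansin EXP1 (Solyc06g051800), which loosens the wall without cutting it, had 565, 512 and 2059.7 CPM in Q and 219, 175 and 246 CPM in GxQ. It was 4.901-fold lower (adjusted p = 0.0107), and its log2 fold change of -2.29 became -1.35 without Q 3. Both genes kept their calls without each library in turn.

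The calls of the other wall genes each ended without at least 1 library. PG2A (Solyc10g080210), the fruit polygalacturonase, had 1565, 1918 and 7549 CPM in Q and 995, 1082 and 1453 CPM in GxQ, with Q 3 far above the others. Its 3.12-fold lower level (adjusted p = 0.0482) was no longer called without GxQ 1, GxQ 2, GxQ 3, Q 3, QxG 2, QxG 3, G 1, G 2 or G 3 (adjusted p = 0.0531 to 0.183), and the log2 fold change of -1.64 became -0.58 without Q 3. The endoglucanase CEL2 (Solyc09g010210) had 780.2, 672 and 4021 CPM in Q and 128, 169 and 494 CPM in GxQ (adjusted p = 0.0286). Its call ended without GxQ 1, GxQ 2 or Q 3 (adjusted p = 0.0744 to 0.106), and its log2 fold change of -2.79 became -1.48 without Q 3 and -3.64 without GxQ 3. The pectinesterase PME2.1 (Solyc07g064180), which removes methyl groups from pectin, had 317, 575 and 341 CPM in Q and 88.2, 4.05 and 69.5 CPM in GxQ. It was 7.62-fold lower (adjusted p = 0.02798), a call lost without GxQ 3 or Q 2 (adjusted p = 0.0663 to 0.0821). Pectinesterase genes stand side by side on chromosome 7 and may share reads. The last wall gene called was Solyc05g005560, entered as the polygalacturonase beta subunit and named here after its values were seen. It had 24.5, 74.8 and 1.54 CPM in Q and 2.05, 0.219 and 0.1698 CPM in GxQ, with overlapping groups (adjusted p = 0.0141). Its call ended without GxQ 2, GxQ 3 or Q 2 (adjusted p = 0.0528 to 0.0575), and its log2 fold change of -5.34 became -7.39 without GxQ 1 and -3.97 without Q 2. The 5 genes not called, XTH5, PMEU1, PE1, CEL1 and TBG4, had log2 fold changes from -0.79 to 0.65. Without Q 3 the list had 5 calls and a median of -0.97, without GxQ 2 or GxQ 3 it had 4 calls, and all of these were lower in GxQ.

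In the other genotypes PL averaged 3041 ± 564 CPM in G and 2058 ± 283 CPM in QxG, so that GxQ was also lower than G (log2 fold change -2.22, adjusted p = 0.00252) and QxG (-1.66, adjusted p = 0.00364). For comparison, 12.3% of all genes were called between GxQ and G, 6.99% higher and 5.34% lower in GxQ, and 10.1% between GxQ and QxG, 7.49% higher and 2.66% lower. MAN4 averaged 19.5 ± 4.7 CPM in G and 17.8 ± 13.7 CPM in QxG, and GxQ was lower than both (-4.07 and -3.94, adjusted p = 0.0251 and 0.0293). EXP1 was lower in GxQ than in QxG (-1.76, adjusted p = 0.0346) and did not pass against G (-1.43, adjusted p = 0.0675). These comparisons share the GxQ libraries and are not independent of that with Q. PME2.1, with 6.56 ± 3.02 CPM in G and 157 ± 69.7 CPM in QxG, was higher in GxQ than in G (3.03, adjusted p = 0.03).

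**Figure D3:**
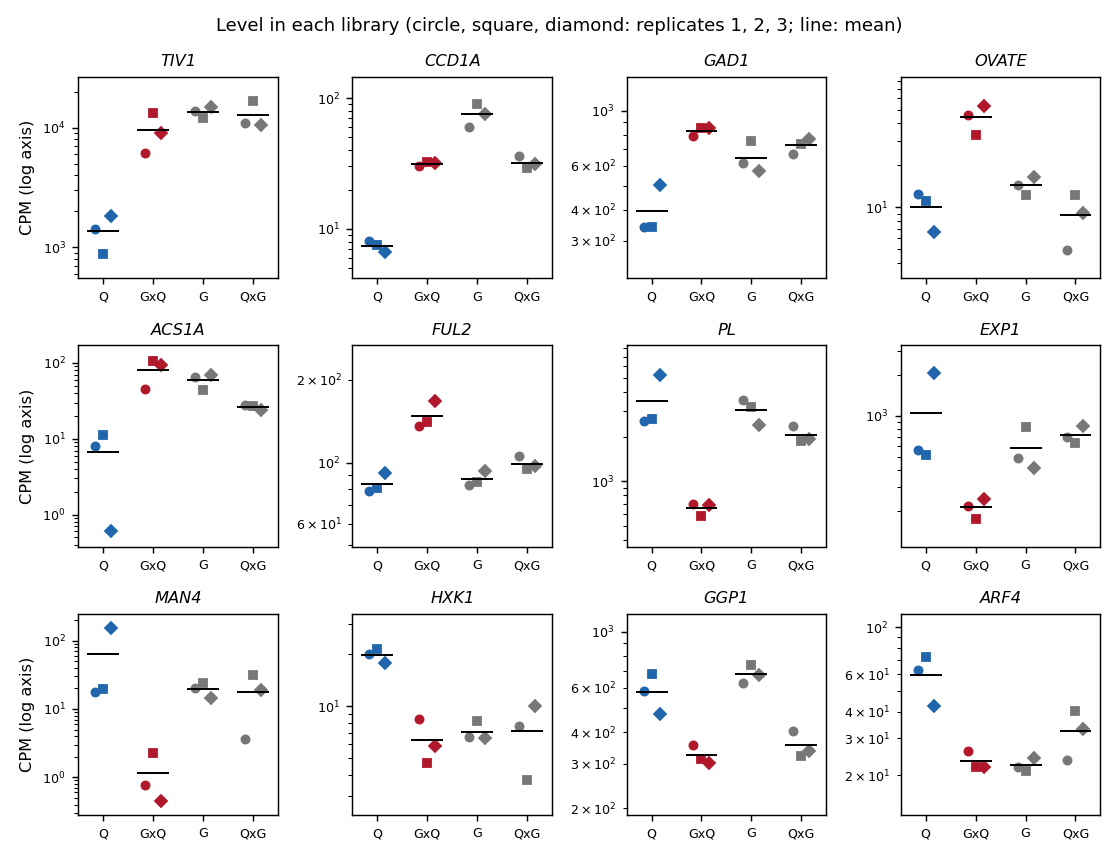
Level of 12 list genes called between GxQ and Q in every library of the 4 genotypes, in CPM on log axes; symbols mark replicate numbers and lines mark means. For PL all 3 GxQ libraries, at 576 to 696 CPM, lie below all others, and for OVATE all 3 GxQ libraries, at 33.1 to 53.3 CPM, lie above all others.

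Among 25 genes of ethylene synthesis and signalling 1 rose and 5 fell (24% called, against 15.5% of all genes). The list's median log2 fold change was -0.19. ACS1A (Solyc08g081550), an ACC synthase, one of the enzymes that make the direct precursor of ethylene, had 8.06, 11.3 and 0.605 CPM in Q and 44.8, 107 and 92.95 CPM in GxQ. All GxQ libraries were above all Q libraries, and Q 3 was the lowest. The level was 12.1-fold higher (log2 fold change 3.6, SE 0.66, adjusted p = 0.00568), with a log2 fold change of 4.2 without Q 2, and the call held without each library. ACS2 (Solyc01g095080), a main ACC synthase of ripening fruit, moved the other way, with 616, 669 and 2098 CPM in Q and 139.8, 238 and 471 CPM in GxQ. It was 3.98-fold lower (adjusted p = 0.0375), but the call ended without GxQ 1, GxQ 2, Q 3, G 1, G 2 or G 3 (adjusted p = 0.0519 to 0.132), and the log2 fold change of -1.99 became -1.20 without Q 3 and -2.60 without GxQ 3.

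ACC oxidases carry out the last step to ethylene. ACO4 (Solyc02g081190) had 108, 119 and 113 CPM in Q and 19.5, 35.5 and 59.3 CPM in GxQ, with no overlap. It was 2.98-fold lower (log2 fold change -1.57, SE 0.33, adjusted p = 0.0111) and kept its call without each library. ACO6 (Solyc02g036350) had 22.6, 19.01 and 215 CPM in Q and 5.88, 6.13 and 7.76 CPM in GxQ (adjusted p = 0.0169). Q 3 was the highest by far, the log2 fold change of -3.7 became -1.68 without it, and the call ended without GxQ 2 or GxQ 3 (adjusted p = 0.0536 to 0.0611). ACO1 (Solyc07g049530), a main ACC oxidase of ripe fruit, had 963, 854 and 3217 CPM in Q and 841, 627 and 2383 CPM in GxQ, and the groups overlapped (log2 fold change -0.39, adjusted p = 0.6998). EIL2, a transcription factor of ethylene signalling named after its values were seen, averaged 53.5 ± 1.58 CPM in Q and 30.9 ± 11.9 CPM in GxQ (adjusted p = 0.0334), a call lost without GxQ 1, GxQ 3, Q 1, Q 2 or Q 3 (adjusted p = 0.0585 to 0.0984). Without Q 3 the list had 1 gene higher and 2 lower, and without GxQ 1 it had the same counts.

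Of 11 ripening regulators 1 was called (9.09%, against 15.5% of all genes), and the list's median log2 fold change was 0.01. FUL2 (Solyc03g114830), a MADS-box factor of ripening, had 79.2, 80.5 and 91.8 CPM in Q and 135, 141 and 167 CPM in GxQ. Every GxQ library was above every library of the other 3 genotypes. FUL2 was 1.76-fold higher (log2 fold change 0.82, SE 0.13, adjusted p = 0.00285), and GxQ was also above G (0.76, adjusted p = 0.00556). RIN (Solyc05g012020), a MADS-box factor needed for normal ripening, had 684, 643 and 885 CPM in Q and 539, 855 and 834 CPM in GxQ, and the groups overlapped (log2 fold change 0.01, SE 0.22, adjusted p = 0.9805). NOR (Solyc10g006880), a NAC factor of ripening, had 184, 194 and 392 CPM in Q and 139.5, 192 and 239 CPM in GxQ (log2 fold change -0.44, SE 0.28, adjusted p = 0.311).

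**Figure D4:**
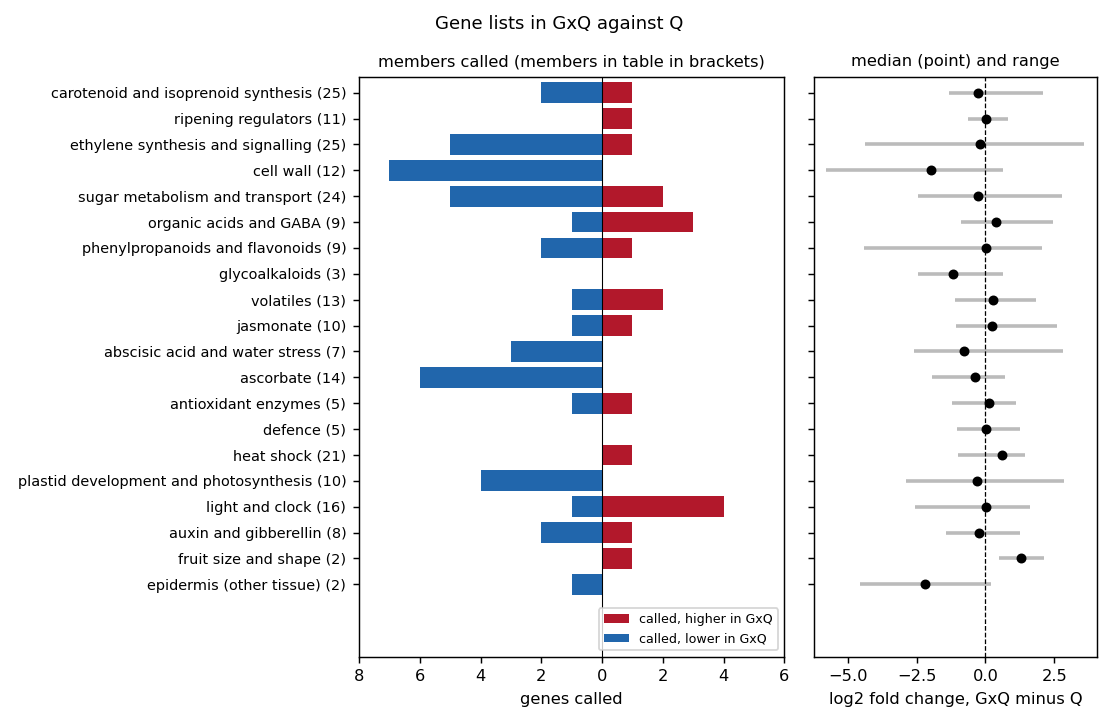
Left, genes called in each of 20 lists with members in the table, higher in GxQ to the right and lower to the left, with the number of members in the table in brackets. Right, the median (point) and range (line) of the members' log2 fold changes, beside the median of all genes (dashed line, -0.02). The cell wall list has 7 members lower and none higher, and its median is -1.97.

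Among 25 genes of carotenoid and isoprenoid synthesis 1 rose and 2 fell (12%, against 15.5% of all genes). The list's median log2 fold change was -0.26. CCD1A (Solyc01g087250), a dioxygenase that cuts carotenoids and so releases volatile compounds, had 8.14, 7.49 and 6.705 CPM in Q and 30.1, 32.6 and 31.98 CPM in GxQ. The libraries within each group lay close together and the groups were far apart. CCD1A was 4.23-fold higher (log2 fold change 2.08, SE 0.17, adjusted p = 6.49e-05) and kept its call without each library. It averaged 75.1 ± 15.3 CPM in G and 32.1 ± 3.33 CPM in QxG, so that GxQ was below G (-1.25, adjusted p = 0.00202) and did not differ detectably from QxG (-0.02, adjusted p = 0.944). The copy beside it on chromosome 1, CCD1B, averaged 342 ± 76.4 CPM in Q and 403 ± 28.04 CPM in GxQ and did not pass (adjusted p = 0.4204); reads of both copies may not be separable.

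CYP97C11 (Solyc10g083790), a carotene hydroxylase on the way to lutein, had 11.6, 11.5 and 9.18 CPM in Q and 4.601, 3.83 and 4.93 CPM in GxQ. It was 2.42-fold lower with no overlap (log2 fold change -1.27, SE 0.28, adjusted p = 0.0126), and the call held without each library. Solyc02g085700, entered as a geranylgeranyl diphosphate synthase, had 53.1, 55.9 and 82.5 CPM in Q and 31.4, 45.9 and 40.3 CPM in GxQ (adjusted p = 0.0272), a call lost without GxQ 1, GxQ 3 or Q 3 (adjusted p = 0.0627 to 0.0748). PSY1 (Solyc03g031860), which makes phytoene, the first carotenoid in fruit, had 5140.5, 5195 and 9515 CPM in Q and 4411, 6017 and 6257 CPM in GxQ. The groups overlapped (log2 fold change -0.25, SE 0.31, adjusted p = 0.624). PDS (Solyc03g123760), the next enzyme, averaged 106 ± 18.7 and 153 ± 38.9 CPM (log2 fold change 0.52, adjusted p = 0.194). CYCB (Solyc06g074240), the chromoplast lycopene cyclase, had 5.49, 4.56 and 8.08 CPM in Q and 2.25, 3.39 and 4.302 CPM in GxQ, without overlap but also without a call (log2 fold change -0.86, SE 0.37, adjusted p = 0.129). Without QxG 1 the list had 2 genes higher and 4 lower, in a fit that called 3828 of 17883 genes.

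Among 24 genes of sugar metabolism and transport 2 rose and 5 fell (29.2%, against 15.5% of all genes). The list's median log2 fold change was -0.29. TIV1 (Solyc03g083910), the vacuolar invertase that splits stored sucrose into glucose and fructose, had 1409, 877 and 1834 CPM in Q and 6156, 13459.9 and 9104 CPM in GxQ. The lowest GxQ library was above the highest Q library. TIV1 was 6.97-fold higher (log2 fold change 2.8, SE 0.38, adjusted p = 0.00178). Its mean of 9573 ± 3674 CPM stood beside 13652 ± 1551 CPM in G and 12712 ± 3423 CPM in QxG, from neither of which GxQ differed by the test (-0.51 and -0.41, adjusted p = 0.3901 and 0.526).

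HXK1 (Solyc03g121070), a hexokinase that phosphorylates hexoses, had 20.04, 21.4 and 17.6 CPM in Q and 8.44, 4.65 and 5.89 CPM in GxQ. SUT4 (Solyc04g076960), a sucrose transporter, had 20.9, 23 and 12.5 CPM in Q and 7.92, 4.71 and 6.397 CPM in GxQ. Neither gene's groups overlapped. HXK1 was 3.11-fold lower and SUT4 2.96-fold lower (log2 fold changes -1.64 and -1.57, adjusted p = 0.00829 and 0.00431), and TIV1, HXK1 and SUT4 kept their calls without each library. LIN5 (Solyc09g010080), a cell wall invertase, had 66.8, 67.3 and 77.4 CPM in Q and 24.6, 28.7 and 64.5 CPM in GxQ and did not pass (log2 fold change -0.84, adjusted p = 0.0847). SUS1 (Solyc12g009300), a sucrose synthase, averaged 96.2 ± 60.9 CPM in Q, where Q 1 was the highest, and 65.8 ± 23.4 CPM in GxQ (log2 fold change -0.55, adjusted p = 0.338).

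The other 4 called sugar genes were named after their values were seen. AGPL1, the large subunit of ADP-glucose pyrophosphorylase for starch synthesis, averaged 5.84 ± 3.08 CPM in Q and 1.05 ± 0.867 CPM in GxQ (adjusted p = 0.0221). This call ended without GxQ 2, GxQ 3, Q 1 or Q 2 (adjusted p = 0.0678 to 0.0761), and the log2 fold change of -2.46 became -3.38 without GxQ 1. Solyc07g056140, entered as the small subunit, averaged 17.7 ± 3.07 and 3.39 ± 2.86 CPM (adjusted p = 0.0165). It was not called without GxQ 3 or Q 2 (adjusted p = 0.0505 to 0.0625), and its log2 fold change of -2.38 became -3.33 without GxQ 1. LIN7, which lies beside LIN5 and may share reads with it, averaged 8.22 ± 0.791 and 3.92 ± 1.17 CPM (adjusted p = 0.0348), and was not called without GxQ 2, GxQ 3, Q 1, Q 2, Q 3, G 1 or G 3 (adjusted p = 0.0521 to 0.107). CIF1, an invertase inhibitor, was higher in GxQ at 198 ± 60.04 CPM against 94.3 ± 22.9 CPM (adjusted p = 0.0183), and was not called without GxQ 2, GxQ 3 or Q 3 (adjusted p = 0.0531 to 0.0669). Leaving out GxQ 2 or GxQ 3 left 1 gene of the list higher and 3 lower, and leaving out Q 2 left 2 and 2.

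Of 9 genes that handle organic acids and GABA 3 rose and 1 fell (44.4%, against 15.5% of all genes). The list's median log2 fold change was 0.40. Solyc12g005860, entered as an aconitase, an enzyme that turns citrate into isocitrate, had 136, 129 and 139.7 CPM in Q and 659, 783 and 801 CPM in GxQ. Each GxQ library was above every library of the other genotypes, which averaged 46.01 ± 7.34 CPM in G and 74.2 ± 21.7 CPM in QxG. Against Q it was 5.54-fold higher (log2 fold change 2.47, SE 0.22, adjusted p = 9.40e-05). Against G the log2 fold change was 4.02 (adjusted p = 9.77e-06) and against QxG it was 3.33 (adjusted p = 3.93e-05).

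GABA is made from glutamate by glutamate decarboxylases and accumulates in tomato fruit. GAD1 (Solyc03g098240), one of these, had 341, 339 and 501 CPM in Q and 789, 851 and 851 CPM in GxQ, and was 2.11-fold higher (log2 fold change 1.08, SE 0.19, adjusted p = 0.00531). GAD1 and the aconitase entry kept their calls without each library. GAD2, another decarboxylase, named after its values were seen, was lower in GxQ at 19.8 ± 3.83 CPM against 36.9 ± 9.65 CPM (adjusted p = 0.0422), a call lost without GxQ 1, GxQ 2, GxQ 3, Q 1, Q 2, G 1, G 2 or G 3 (adjusted p = 0.0568 to 0.137). SSADH (Solyc09g090700), a late enzyme of GABA breakdown, had 52.9, 56.7 and 72.9 CPM in Q and 112, 101 and 95.8 CPM in GxQ (log2 fold change 0.76, adjusted p = 0.0348), a call lost without GxQ 1, GxQ 2, GxQ 3, Q 1 or Q 2 (adjusted p = 0.0718 to 0.114). Solyc04g076880, entered as a PEP carboxykinase, which draws on organic acids to form sugars, had 1129, 702 and 795 CPM in Q and 1343, 3198 and 3270.1 CPM in GxQ, without overlap. It did not pass (log2 fold change 1.57, SE 0.50, adjusted p = 0.0536). Without GxQ 2, GxQ 3, Q 1 or Q 2 the list had 2 genes higher and none lower.

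Among 13 genes of fatty acid and other volatiles 2 rose and 1 fell (23.1%, against 15.5% of all genes). The list's median log2 fold change was 0.27. Solyc09g091050, entered as a lipase, had 69.5, 69.8 and 71.8 CPM in Q and 152, 189 and 176 CPM in GxQ. It was 2.45-fold higher (log2 fold change 1.29, SE 0.17, adjusted p = 0.00139), a call kept without each library. ADH2 (Solyc06g059740), an alcohol dehydrogenase that turns aldehydes into alcohols, had 7009.7, 7034 and 12599 CPM in Q and 14244, 25147 and 19544 CPM in GxQ (log2 fold change 1.15, adjusted p = 0.0453). Its groups did not overlap, but the call ended without GxQ 2, GxQ 3, Q 1, Q 2, QxG 1, QxG 2, QxG 3, G 1, G 2 or G 3 (adjusted p = 0.0501 to 0.157). AAT1 (Solyc08g005770), an acyltransferase that makes esters, had 2921, 3672 and 4381 CPM in Q and 1573, 2543 and 1642 CPM in GxQ (log2 fold change -0.93, adjusted p = 0.0316), a call lost without GxQ 1, GxQ 3, Q 2 or Q 3 (adjusted p = 0.0572 to 0.104).

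Lipoxygenases oxidise fatty acids, either for aroma or for jasmonate. TomLoxC (Solyc01g006540), the lipoxygenase of fruit aroma, had 229, 224 and 667 CPM in Q and 209, 237 and 312 CPM in GxQ, and the groups overlapped (log2 fold change -0.56, adjusted p = 0.346). LOXB, looked at after its values were seen, had 4698, 4406 and 21056 CPM in Q and 21194, 41485 and 32688 CPM in GxQ (log2 fold change 1.66, SE 0.57, adjusted p = 0.0683). The third Q library lay just below the lowest GxQ library and far above the other Q libraries, and without it the log2 fold change was 2.79 (adjusted p = 0.0021). LOXD (Solyc03g122340), of the jasmonate list, had 55.2, 35.4 and 5.11 CPM in Q and 249, 93.5 and 239.5 CPM in GxQ. It was 6.06-fold higher (log2 fold change 2.6, SE 0.73, adjusted p = 0.0348). The call ended without GxQ 1, GxQ 3, Q 2 or G 1 (adjusted p = 0.0506 to 0.0937), and the log2 fold change became 3.26 without Q 1. Both G, at 10.3 ± 6.103 CPM, and QxG, at 3.79 ± 2.601 CPM, were below GxQ (4.22 and 5.69, adjusted p = 0.00843 and 0.00152). AOC (Solyc02g085730), the allene oxide cyclase of jasmonate synthesis, had 23.4, 18.6 and 19.5 CPM in Q and 10.1, 11.7 and 7.81 CPM in GxQ, and was 2.08-fold lower (log2 fold change -1.05, adjusted p = 0.00694), a call kept without each library. LOXD and AOC were the only 2 calls among 10 jasmonate genes (20%, against 15.5% of all genes). The jasmonate list had a median log2 fold change of 0.23.

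Of 9 phenylpropanoid and flavonoid genes 1 rose and 2 fell (33.3%, against 15.5% of all genes), with a median log2 fold change of 0.04. Solyc10g086180, entered as a phenylalanine ammonia-lyase, the entry step of this pathway, had 34.5, 51.3 and 54.4 CPM in Q and 1.53, 4.49 and 0.566 CPM in GxQ. It was 21.2-fold lower (log2 fold change -4.41, SE 0.59, adjusted p = 0.00155), with -5.45 without GxQ 2 and a call kept without each library. Solyc05g010320, entered as a chalcone isomerase, had 3.08, 2.198 and 4.18 CPM in Q and 0.665, 0.383 and 0.849 CPM in GxQ (log2 fold change -2.31, adjusted p = 0.0153), a call lost without GxQ 2 (adjusted p = 0.0558). 4CL (Solyc03g117870), which activates coumarate, had 177, 172 and 303 CPM in Q and 381, 372 and 596 CPM in GxQ (log2 fold change 1.05, adjusted p = 0.0229), a call lost without GxQ 3, Q 1 or Q 2 (adjusted p = 0.0816 to 0.0952).

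Of 7 genes of abscisic acid and water stress 3 were called lower and none higher (42.9%, against 15.5% of all genes). The log2 fold changes of the members, called or not, ran from -2.59 to 2.81, with a median of -0.78. Among the called genes were a pair listed as hydroxylases, which break down abscisic acid, a hormone that also promotes ripening. Solyc04g071150, entered as such a hydroxylase, had 176, 192 and 319.6 CPM in Q and 36.04, 19.9 and 57.97 CPM in GxQ. It was 6.03-fold lower (log2 fold change -2.59, SE 0.37, adjusted p = 0.00207), a call kept without each library. CYP707A1 (Solyc04g078900) had 29.3, 21.5 and 38.5 CPM in Q and 16.7, 13.2 and 8.38 CPM in GxQ (log2 fold change -1.22, adjusted p = 0.0284), a call lost without GxQ 2, GxQ 3, Q 1 or Q 3 (adjusted p = 0.0589 to 0.08997). AREB1 (Solyc04g078840), a transcription factor of the abscisic acid response, had 18.2, 16.5 and 13.96 CPM in Q and 8.54, 9.41 and 10.5 CPM in GxQ (log2 fold change -0.78, adjusted p = 0.0196), a call lost without GxQ 1, GxQ 2, Q 1 or Q 2 (adjusted p = 0.0538 to 0.0647). The list had 1 call without GxQ 2, and 1 gene higher and 4 lower without QxG 2, without QxG 3 or by DESeq2. Over all 17887 genes DESeq2 called 4003.

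Among 14 ascorbate genes 6 were called lower and none higher (42.9%, against 15.5% of all genes). The log2 fold changes of the members, called or not, ran from -1.94 to 0.72, with a median of -0.40. GGP1 (Solyc06g073320), the GDP-galactose phosphorylase at the step that commits sugar to vitamin C, had 580.3, 681 and 472 CPM in Q and 357, 313 and 302 CPM in GxQ. It was 1.78-fold lower with no overlap (log2 fold change -0.83, SE 0.18, adjusted p = 0.01096) and kept its call without each library. GME1 (Solyc01g097340), a GDP-mannose epimerase one step earlier, had 81.4, 81.5 and 114 CPM in Q and 52.7, 50.2 and 65.8 CPM in GxQ (log2 fold change -0.72, adjusted p = 0.01899), a call lost without GxQ 1 or GxQ 2 (adjusted p = 0.05003 to 0.0674). Solyc04g014800, entered as the phosphatase of the following step, had 5.41, 4.396 and 4.12 CPM in Q and 1.23, 1.09 and 1.302 CPM in GxQ (log2 fold change -1.94, adjusted p = 0.0222), a call lost without GxQ 2, GxQ 3, Q 1 or Q 2 (adjusted p = 0.0571 to 0.0706).

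The other 3 called ascorbate genes were named after their values were seen. GGP2, the second phosphorylase, averaged 171 ± 17.02 CPM in Q and 86.5 ± 14.9 CPM in GxQ (adjusted p = 0.0258), and its call ended without GxQ 2, GxQ 3 or Q 2 (adjusted p = 0.0532 to 0.0891). GMP, which makes GDP-mannose, averaged 23.9 ± 3.36 and 15.03 ± 2.32 CPM (adjusted p = 0.03496), and its call ended without GxQ 2, GxQ 3, Q 1, Q 2, Q 3 or G 3 (adjusted p = 0.0519 to 0.116). MDHAR, a reductase that recycles ascorbate, averaged 91.9 ± 23.8 and 59.3 ± 8.23 CPM (adjusted p = 0.0344), and its call ended without GxQ 1, GxQ 2, GxQ 3, Q 2, Q 3, G 1 or G 3 (adjusted p = 0.0511 to 0.117). All 6 genes had the same sign in every fit with 1 library left out, but the list had 1 call without GxQ 2 and 2 calls without GxQ 3 or Q 2. By DESeq2, which called 4003 of 17887 genes, 1 ascorbate gene was called higher and 6 lower. Of 5 antioxidant enzymes 1 rose and 1 fell (40%, against 15.5% of all genes), both listed as catalases, which break down hydrogen peroxide. Solyc04g082460, entered as a catalase, had 75.01, 55.3 and 68.97 CPM in Q and 117, 181 and 131 CPM in GxQ (log2 fold change 1.1, adjusted p = 0.00381), a call kept without each library. CAT1 (Solyc12g094620) had 1087, 1113 and 1315 CPM in Q and 776, 433 and 317 CPM in GxQ (log2 fold change -1.2, adjusted p = 0.0346), a call lost without GxQ 2, GxQ 3, Q 1, Q 2, Q 3 or G 3 (adjusted p = 0.0508 to 0.1103).

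Of 21 heat shock genes 1 was called (4.76%, against 15.5% of all genes), while the median log2 fold change of the list was 0.60. HSC80 (Solyc07g065840), an HSP90-type chaperone, had 1535, 1666 and 1272 CPM in Q and 2268, 4291 and 2116 CPM in GxQ (log2 fold change 0.96, adjusted p = 0.0375), a call lost without GxQ 2, Q 1, Q 2, Q 3, QxG 2, QxG 3, G 1, G 2 or G 3 (adjusted p = 0.0515 to 0.136). HSP90 (Solyc06g036290) had 568, 499.9 and 2539 CPM in Q and 806, 1114 and 1254 CPM in GxQ, with Q 3 above all GxQ libraries and Q 1 and Q 2 below them (log2 fold change -0.18, adjusted p = 0.858). HSP21 (Solyc03g082420), a small heat shock protein of plastids, averaged 739 ± 275 and 699 ± 330.3 CPM (log2 fold change -0.08, adjusted p = 0.924). Solyc03g115230, entered as a disaggregating chaperone, had 1729, 1984 and 3834 CPM in Q and 1083, 1513 and 1173 CPM in GxQ, without overlap and without a call (log2 fold change -1.002, adjusted p = 0.0573).

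Without Q 3, 4 heat shock genes were called, all higher in GxQ and named here after their values were seen. They were Solyc04g011440, entered as a chaperone of the HSP70 type, and the small heat shock entries Solyc06g076520, Solyc06g076560 and Solyc08g078700. Their log2 fold changes without Q 3 were 1.82, 1.62, 1.65 and 1.98 (adjusted p = 0.00752, 0.0301, 0.0396 and 0.0378), against 0.89, 1.17, 1.29 and 1.02 with all libraries (adjusted p = 0.229, 0.0788, 0.0644 and 0.259). The small heat shock genes on chromosome 6 lie close together and may share reads. With 1 other library left out, the list did not keep to this count or direction. HSC80 was called higher with 1 other heat shock gene without GxQ 1 or QxG 1 (Solyc06g076560) and without GxQ 3 (Solyc09g010630, entered as a chaperone), so that 2 genes were called. Without Q 1 the only call was Solyc03g115230, lower in GxQ (log2 fold change -1.22, adjusted p = 0.0439), and without any of the other 7 libraries 0 were called. Without Q 3 and QxG 1 together 6 were called, all higher, in a fit that called 3660 of 17863 genes. By DESeq2, which called 4003 of 17887 genes, 4 were called higher and 1, Solyc03g115230, lower.

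Of 10 genes of plastid development and photosynthesis 4 were called lower and none higher (40%, against 15.5% of all genes). The log2 fold changes of the members, called or not, ran from -2.87 to 2.86, with a median of -0.32. Solyc08g077230, entered as a factor of plastid development, had 53.1, 40.7 and 52.2 CPM in Q and 19.2, 14.01 and 18.4 CPM in GxQ. It was 2.83-fold lower (log2 fold change -1.5, SE 0.21, adjusted p = 0.00179), a call kept without each library. CAB3A (Solyc03g005760), which binds chlorophyll, had 18.4, 8.95 and 19.3 CPM in Q and 2.61, 2.46 and 5.32 CPM in GxQ, and was 4.49-fold lower (log2 fold change -2.17, adjusted p = 0.005996), also kept without each library. PSBS (Solyc06g060340), a protein of photoprotection, had 8.38, 4.27 and 36.3 CPM in Q and 2.61, 2.298 and 1.698 CPM in GxQ (log2 fold change -2.87, adjusted p = 0.0404). This call ended without GxQ 1, GxQ 2, GxQ 3, Q 3 or G 2 (adjusted p = 0.0531 to 0.173), and the log2 fold change became -1.53 without Q 3. SGR1, which acts in chlorophyll breakdown and was named after its values were seen, averaged 1462 ± 641 CPM in Q and 578 ± 302 CPM in GxQ (adjusted p = 0.0459), a call lost without GxQ 1, GxQ 2, Q 2, Q 3, QxG 2, G 1, G 2 or G 3 (adjusted p = 0.0562 to 0.146). Leaving out GxQ 1, GxQ 2, Q 3 or G 2 left 2 calls, both lower. By DESeq2, which called 4003 of 17887 genes, 1 member of the list was called higher and 4 lower.

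Of 16 genes of light response and the circadian clock 4 rose and 1 fell (31.2%, against 15.5% of all genes). The list's median log2 fold change was 0.04. In plants, clock genes peak at set hours of the day, and the labels name no hour of harvest. Solyc10g005080, entered as a morning factor of the clock, had 207, 212 and 188 CPM in Q and 46.3, 26.7 and 30.1 CPM in GxQ. Its GxQ libraries were below every library of the other genotypes, and in GxQ it was 5.89-fold lower (log2 fold change -2.56, SE 0.21, adjusted p = 6.82e-05). Solyc04g071990, entered as an evening factor, had 43.2, 43.2 and 67.9 CPM in Q and 103, 152 and 141 CPM in GxQ, and was 2.57-fold higher (log2 fold change 1.36, SE 0.20, adjusted p = 0.00235). Solyc03g081240, entered as another clock factor, had 9.09, 7.49 and 4.12 CPM in Q and 23.6, 17.8 and 22.4 CPM in GxQ. It was 3.07-fold higher (log2 fold change 1.62, SE 0.33, adjusted p = 0.00854), and all 3 of these calls held without each library.

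The morning entry averaged 257 ± 20.5 CPM in G and 89.99 ± 15.2 CPM in QxG, and GxQ was lower than both (-2.91 and -1.39, adjusted p = 7.63e-05 and 0.00127). The evening entry Solyc04g071990 averaged 71.4 ± 6.84 CPM in G and 105 ± 7.87 CPM in QxG, with GxQ above G (0.89, adjusted p = 0.0163) and not detectably different from QxG (0.34, adjusted p = 0.329). The other 2 genes called higher were named after their values were seen. Solyc06g069690, entered as an evening factor, averaged 25.3 ± 1.88 and 39 ± 7.24 CPM (adjusted p = 0.0214), a call lost without GxQ 2, Q 2 or Q 3 (adjusted p = 0.0598 to 0.0754). COP1, a repressor of light responses, averaged 71.7 ± 8.83 and 135 ± 61.2 CPM (adjusted p = 0.0315), a call lost without GxQ 2, Q 1, Q 2 or Q 3 (adjusted p = 0.0532 to 0.0928). Without GxQ 2, Q 2 or Q 3 the list had 2 genes higher and 1 lower.

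Of 8 auxin and gibberellin genes 1 rose and 2 fell (37.5%, against 15.5% of all genes), with a median log2 fold change of -0.24. IAA9 (Solyc04g076850), a repressor of auxin responses known for its role in fruit set, had 533, 665 and 389.9 CPM in Q and 266, 155 and 167 CPM in GxQ. IAA3 (Solyc09g065850), a repressor of the same family, had 348, 354 and 179.6 CPM in Q and 587, 752 and 781 CPM in GxQ. ARF4 (Solyc11g069190), an auxin response factor, had 62.99, 72.3 and 42.4 CPM in Q and 26.2, 21.8 and 21.96 CPM in GxQ. None of the 3 genes overlapped between the groups, and each kept its call without each library. IAA9 was 2.697-fold lower and ARF4 2.54-fold lower, while IAA3 was 2.41-fold higher (log2 fold changes -1.43, -1.34 and 1.27, adjusted p = 0.00404, 0.00354 and 0.00669).

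OVATE (Solyc02g085500), a repressor whose loss elongates the fruit, had 12.4, 11.03 and 6.65 CPM in Q and 45.7, 33.1 and 53.3 CPM in GxQ. Every GxQ library was above every other library of the study. OVATE was 4.38-fold higher (log2 fold change 2.13, SE 0.33, adjusted p = 0.00256), and GxQ was also above G, at 14.4 ± 2.07 CPM, and QxG, at 8.73 ± 3.64 CPM (1.61 and 2.34, adjusted p = 0.00995 and 0.00102). The other gene of fruit shape in the table, SUN, differed by 0.48 on the log2 scale (adjusted p = 0.574). Of 3 glycoalkaloid genes and of 5 defence genes none was called (0% of each, against 15.5% of all genes). The median log2 fold change was -1.18 in the glycoalkaloid list and 0.03 in the defence list. Without adjustment, 2 glycoalkaloid genes and 0 defence genes had a p under 0.05, as had 5589 of all 17887 genes. By DESeq2, which called 4003 of 17887 genes, 1 glycoalkaloid gene was called lower and no defence gene was called. Lists this small leave such counts uninformative. The gene called by DESeq2 was Solyc10g085230, entered as a glycosyltransferase and named after its values were seen, with a log2 fold change of -1.18 (adjusted p = 0.0511 by edgeR). It was called lower without GxQ 3 and without Q 1 (adjusted p = 0.0476 and 0.0487), at -1.52 and -1.39.

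Of the epidermis markers CER6 (Solyc02g085870), which makes the long chains of cuticular wax, had 8.18, 12.8 and 3.52 CPM in Q and 0.614, 0.109 and 0.283 CPM in GxQ. It was 23.7-fold lower (log2 fold change -4.57, SE 0.99, adjusted p = 0.0123), with -5.34 without GxQ 1 and a call kept without each library. CD2, a regulator of the cuticle, had 8.46, 9.28 and 9.89 CPM in Q and 11.7, 4.27 and 15.7 CPM in GxQ, with overlapping groups (log2 fold change 0.2, adjusted p = 0.767). The part of skin left on the flesh in these differences was not tested.

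Outside the lists, 5 genes had 0 counts in all Q libraries and at least 1 CPM on average in GxQ. Solyc08g007890 had 17.9, 0.766 and 22.2 CPM in GxQ and Solyc05g006370 had 10.2, 11.1 and 8.49 CPM. Taking 3 counts over the 3 Q libraries together as the floor, 0.0441 CPM, these were at least 309-fold and at least 225-fold higher in GxQ (adjusted p = 0.00838 and 1.59e-05). Solyc05g006370 averaged 18.2 ± 1.803 CPM in G and 8.76 ± 2.69 CPM in QxG, while Solyc08g007890 averaged 0.241 ± 0.135 and 0.641 ± 0.903 CPM there. GxQ 2 was far below the other GxQ libraries for Solyc08g007890. The reverse, 0 counts in all GxQ libraries and at least 1 CPM on average in Q, was found for 1 gene. The 2 identifiers outside the lists with the largest fall were Solyc07g054670, with 6.68, 7.94 and 13.4 CPM in Q and 0, 0.0547 and 0 CPM in GxQ, and Solyc06g083480, with 13.9, 10.9 and 12.04 CPM in Q and 0, 0.109 and 0.1698 CPM in GxQ (adjusted p = 0.00327 and 0.00236). Counts this low in GxQ leave the size of both falls uncertain.

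By the chromosome in the identifiers, calls were spread over all 12 chromosomes, from 13.1% of the genes tested on chromosome 9 to 16.5% on chromosome 5. The share called higher was lowest on chromosome 11, at 5.84%, and highest on chromosome 1, at 9.72%. On chromosomes 4, 5, 8 and 11 more genes were lower than higher in GxQ, and on chromosome 12 there were 84 of each. Genes in identifier order were also cut into 349 windows of 50 genes, in which the median was 4 genes higher and 3 lower. No window had more than 11 genes in either direction. The windows with 11 genes higher ran from Solyc08g081440 to Solyc08g082170, which includes ACS1A, and from Solyc02g092260 to Solyc02g092860, and that with 11 genes lower from Solyc10g085790 to Solyc10g086520, which includes the phenylalanine ammonia-lyase entry. These are descriptions, with no test of position.

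**Figure D5:**
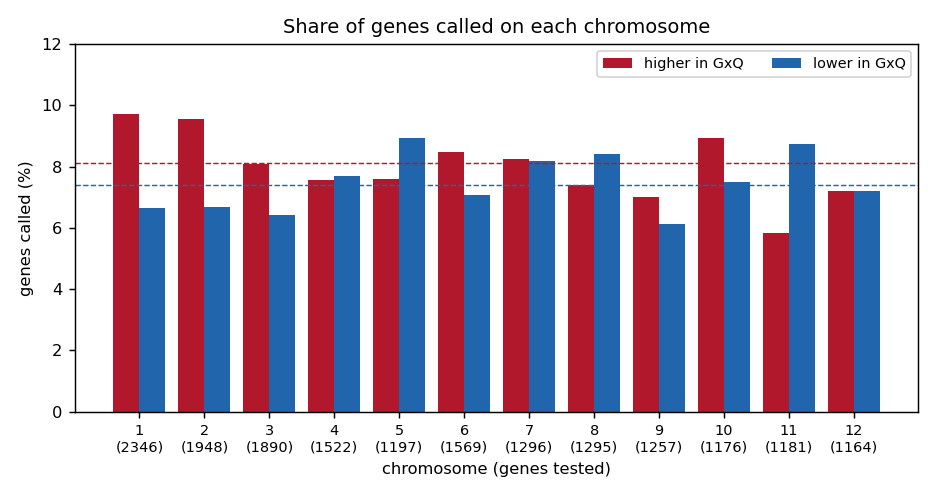
Percent of the genes tested on each chromosome (number in brackets) that were called higher or lower in GxQ than in Q; dashed lines mark the shares over all genes, 8.13% and 7.41%. Chromosome 1 has the highest share of genes higher in GxQ, 9.72%, and chromosome 11 the lowest, 5.84%.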

How the data were processed

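RNA of single fruits was sequenced in 12 libraries, 3 per genotype, and the authors deposited 1 table of whole-number read counts for 17887 genes. Totals differ, so they were taken as raw. Per the submitters' processing notes, which give no roles, FastQC, fastp 0.21, HISAT2 2.1.0, featureCounts, Subread, edgeR and R 4.0.3 were used. The sources used here do not give the genome build, the annotation, the strand setting or the treatment of reads with several matches. Thus neighbouring copies and overlapping genes may share reads, and wild alleles may map less well than reference ones.

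Columns were matched to samples by name, with 0 left over. Counts were fitted with edgeR's quasi-likelihood method (F test; edgeR 4.0.16, limma 3.58.1, R 4.3.3), using all 12 libraries, TMM scaling, 1 mean per genotype and Benjamini-Hochberg adjustment; genes were called at 0.05. The filter on low counts removed 0 genes. There were 8 residual degrees of freedom and a common biological coefficient of variation of 0.309. Standard errors were taken as the size of the log2 fold change over the root of its F. CPM are TMM-scaled. Correlations used log2(CPM + 0.5) across genes, which are not independent replicates. No pair of libraries of a genotype agreed within sampling noise (chi-square per gene 15.2 to 138). The fit was tested on simulated counts.

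Numbers shared between GxQ and Q libraries did not pair them (r of deviations 0.27, -0.15 and 0.24), while those of GxQ and QxG were all above 0.1 (0.16, 0.33 and 0.21). A block on the number in the hybrids, added for that reason, moved the count of calls between GxQ and QxG from 1815 to 2169.

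The comparison, the 21 lists (287 genes, 231 in the table) and the genes to name were chosen with earlier results of these data known. Named were the 8 list genes with the largest rise and the 8 with the largest fall among called genes of at least 5 CPM whose libraries did not overlap, in each list the called genes with the smallest adjusted p (up to 3), a set of ripening, sugar, acid, aroma and heat shock genes called or not, and 2 identifiers outside the lists in each direction. Identifiers come without names. Of 205 list symbols that match 1 gene of the RefSeq table (assembly SLM_r2.1), 200 lay on the same chromosome. Of their pairs on a chromosome, 1708 of 1724 stood in the same order. A symbol is printed only where the chromosome was the same and a share of at least 0.9 of its pairs kept the order. Roles are general knowledge. Alternatives were other scaling, filters, DESeq2 1.42.0, the 6 libraries alone, each library left out and the replicate block. The values of 1 list gene are not reported here.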

Additional observations from a re-analysis of the deposited data

Results flagged for a closer look

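For 16 of the 52 named genes called between GxQ and Q, GxQ was also called against QxG by edgeR's quasi-likelihood test. QxG is the reciprocal hybrid and has the same parents. QxG was not tested against Q, so that it may also differ from Q in some of these genes, to another extent. Of all genes tested, 10.1% were called between the hybrids. The 52 genes were chosen by calls that rest on the same GxQ libraries, so their share cannot be set against this one. All 16 named genes kept their call between the hybrids when the replicate number was a block there, a fit of the same libraries. The log2 fold changes below are GxQ minus QxG.

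Among genes higher in GxQ than in Q, LOXD was 5.69 higher than in QxG, the aconitase entry Solyc12g005860 was 3.33 higher, the clock entry Solyc03g081240 was 2.61 higher, OVATE was 2.34 higher, IAA3 was 1.91 higher and FUL2 was 0.58 higher. LOXD had 93.5 to 249 CPM in GxQ and 1.94 to 6.76 CPM in QxG.

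Among genes lower in GxQ than in Q, the values were -5.40 for Solyc06g083480, -3.94 for MAN4, -1.78 for CYP707A1, -1.76 for EXP1 and -1.70 for the abscisic acid hydroxylase entry Solyc04g071150. They were -1.66 for PL, -1.58 for CAB3A, -1.39 for the morning clock entry Solyc10g005080, -1.01 for AAT1 and -0.67 for the geranylgeranyl diphosphate synthase entry Solyc02g085700. Solyc06g083480, at 0, 0.109 and 0.1698 CPM in GxQ, had 0.905, 1.45 and 9.97 CPM in QxG, where the third library was far above the others. MAN4 and CAB3A were also low in GxQ, at 0.453 to 2.24 CPM and 2.46 to 5.32 CPM. The first QxG library, with many genes at 0, enters all of these values.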

How the results depend on the processing

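With 3 fruits a side, many calls ended when 1 library was left out, which also lowers the replication, and 12 libraries limit the estimate of spread. Over fits without 1 library each, the calls ranged from 1258 to 3828, those higher in GxQ from 642 to 1824, those lower from 616 to 2004, changes of at least 2-fold from 946 to 2129 and list genes called from 39 to 73. In a fit of only the GxQ and Q libraries 1875 genes were called, 916 of them higher in GxQ, and 40 list genes. Another scaling gave 2777 calls, a stricter filter 2739 and DESeq2 4003. The fit without Q 3 and QxG 1 was chosen after seeing the data.

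Replicate numbers did not pair GxQ with Q, and not every library correlated best with its own number. The replicate block gave 2609 calls with all libraries. With the GxQ and Q libraries alone the block gave 1050 calls, 505 higher and 545 lower, 875 of at least 2-fold and 33 list genes; the cause was not tested.

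For the 65 named genes, 1129 values under an alternative kept direction and call, 135 lost the call, 11 gained it and 24 changed sign, the last only in genes not called. The 1129 include those of the fit without a filter, which is the same as the full fit. Without 1 library each, the log2 fold change ranged from -0.41 to 0.09 for PSY1, -0.10 to 0.20 for RIN, -1.22 to 0.48 for ACO1, -0.90 to 0.079 for SUS1, -0.83 to 0.14 for TomLoxC, -0.31 to 0.27 for HSP21 and -0.56 to 0.97 for HSP90. Without Q 3 and QxG 1 it was 0.10 for PSY1, 0.49 for ACO1, 0.15 for TomLoxC, 0.26 for HSP21 and 0.98 for HSP90. RIN was at -0.021 with the stricter filter, and at -0.0066 and -0.0092 with the block in all libraries and in the GxQ and Q libraries alone. HSP90 was at 0.086 and 0.23 with those blocks.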
